A study of Mus musculus with 5 samples.

Results

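The stretch from Ppp2r5d to Ubr2 was defined as all tiling-array probes of mouse chromosome 17 at positions 44800000 to 45144999 of the array files, a span of 345 kb. It held 1731 of the 387986 chromosome 17 probes and gave 69 of 15383 windows of 5 kb. The rule also set a short-gene segment of 45 kb (9 windows, to 44844999), a Ubr2 segment of 60 kb (12 windows, from 45085000) and 240 kb between them (48 windows). The limits were set with levels of these arrays in view: the stretch was picked for being transcribed in every group and for its total against polyA difference, so both are given as description, with no support drawn from them. The RNA came from 2 spontaneously immortalised lines of embryo fibroblasts, made from embryos at 12.5 days after conception, strain FVBN. MEFF has the genotype Thp/+ and MEFB (MEFB1 in the culture notes) +/Thp, so every sample carries the Thp deletion on 1 copy, on opposite parental copies in the 2 lines. That deletion covers at least 4.6 Mb at 8.6 to 13.2 Mb of mm9 and lies far from the genes described here. The groups were MEFF total RNA (2 arrays), MEFF polyA RNA (2 arrays) and MEFB polyA RNA (1 array), so each genotype is represented by 1 line, and line and genotype cannot be told apart. Whether the 2 arrays of a group stem from separate cultures is not stated, and p-values measure only their spread, which may be technical.

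A level here is log2 of the cDNA signal over the genomic DNA signal of the same probe, averaged over a set of probes and centred on the median probe of the array, so that 0 is the middle of the chromosome and each unit is a doubling of the ratio. Fewer cells expressing a gene and less RNA per cell cannot be told apart in such samples, and the cDNA kept no strand. The arrays differed in dynamic range: the 99th percentile of the cDNA intensity was 5.42 and 5.33 times the median for total RNA, 9.17 and 22.4 times for MEFF polyA replicates 1 and 2, and 20.7 times for MEFB. MEFF polyA replicate 2 therefore stands apart from replicate 1, and results are also given without either. The total RNA arrays and the polyA arrays came from different slide series by the image identifiers in the file headers, so the effect of the slides and that of the RNA type cannot be told apart.

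The array files do not state the genome build of their positions. All 1731 probes were placed on the NCBIM37 assembly (mm9) at 17:46780349 to 47122380 by how the array's probes avoid repeated sequence, without any cDNA value. Of the 9 blocks of 40 kb that overlap the stretch, 6 gave this place on their own, and the rest were placed with the help of nearby blocks. At the placed positions, exon probes of the stretch exceeded its other probes by 1.1 and 1.14 in total RNA and by 1.95 and 2.67 in MEFF polyA RNA. With the positions displaced by 100 bp to either side, these gaps were between 0.43 and 0.50 for total RNA and between 0.96 and 1.42 for polyA RNA. By the GENCODE vM1 annotation the stretch overlaps 18 protein-coding genes, of which 16 had at least 5 exon probes. The name Ppp2r5d to Ubr2 covers the order of the probes only in part, because 5 genes precede Mea1 and Ppp2r5d in the short-gene segment: the 5′ end of Klc4, then Mrpl2, Cul7, Rrp36 and Klhdc3. At the other limit the stretch holds 57.1 kb of the 82.2 kb of Ubr2, its 3′ part.

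The genes of the stretch have varied roles. Ppp2r5d encodes a regulatory subunit of protein phosphatase 2A, an enzyme built from a scaffold, a catalytic and an exchangeable regulatory subunit that steers it to its substrates. Ubr2 encodes a ubiquitin ligase that recognises proteins by destabilising residues at their N-terminus, the N-end rule pathway, and Cul7 and Klhdc3 encode a scaffold and a substrate receptor of other ubiquitin ligases. Mature messenger RNA carries a poly(A) tail and has lost its introns, whereas total RNA also holds unspliced and untailed transcripts and is mostly ribosomal RNA.

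Promoter sequences were taken from RefSeq (GRCm38.p6, 300 bases from 250 before to 50 after the start), which held 24 entries for 16 of the 18 genes; BC032203 and A330017A19Rik had none under these names. Promoters of 3 transcribed genes central to the results are shown beside those of 2 genes whose exons stayed near 0, with every CG dinucleotide in capitals. They are Klhdc3 (chr17:46680881-46681180, minus strand), Ppp2r5d (chr17:46704953-46705252, minus strand), Ubr2 (chr17:47010483-47010782, minus strand), Prph2 (chr17:46910228-46910527, plus strand) and Ptcra (chr17:46763663-46763962, minus strand).
Klhdc3: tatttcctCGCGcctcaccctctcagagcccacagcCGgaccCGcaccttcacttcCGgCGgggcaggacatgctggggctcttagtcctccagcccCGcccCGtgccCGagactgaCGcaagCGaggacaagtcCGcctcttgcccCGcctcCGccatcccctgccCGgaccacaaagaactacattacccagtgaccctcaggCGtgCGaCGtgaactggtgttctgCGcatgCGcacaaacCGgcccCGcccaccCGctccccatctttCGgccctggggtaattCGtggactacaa
Ppp2r5d: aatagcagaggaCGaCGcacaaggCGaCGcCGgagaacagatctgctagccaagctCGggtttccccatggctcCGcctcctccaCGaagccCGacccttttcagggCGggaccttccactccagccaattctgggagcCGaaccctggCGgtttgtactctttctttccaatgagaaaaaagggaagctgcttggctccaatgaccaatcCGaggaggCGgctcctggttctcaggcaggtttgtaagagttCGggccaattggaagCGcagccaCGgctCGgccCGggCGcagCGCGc
Ubr2: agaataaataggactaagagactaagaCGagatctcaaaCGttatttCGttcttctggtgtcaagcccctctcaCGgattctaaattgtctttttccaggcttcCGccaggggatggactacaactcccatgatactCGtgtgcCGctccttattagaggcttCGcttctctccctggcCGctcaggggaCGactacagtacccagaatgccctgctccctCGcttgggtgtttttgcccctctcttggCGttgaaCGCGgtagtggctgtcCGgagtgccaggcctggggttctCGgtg
Prph2: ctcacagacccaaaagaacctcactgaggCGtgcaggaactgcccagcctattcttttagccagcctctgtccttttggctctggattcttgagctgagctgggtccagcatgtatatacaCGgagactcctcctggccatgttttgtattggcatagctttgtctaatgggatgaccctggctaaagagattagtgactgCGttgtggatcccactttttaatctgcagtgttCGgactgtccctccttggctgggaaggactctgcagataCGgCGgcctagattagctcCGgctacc
Ptcra: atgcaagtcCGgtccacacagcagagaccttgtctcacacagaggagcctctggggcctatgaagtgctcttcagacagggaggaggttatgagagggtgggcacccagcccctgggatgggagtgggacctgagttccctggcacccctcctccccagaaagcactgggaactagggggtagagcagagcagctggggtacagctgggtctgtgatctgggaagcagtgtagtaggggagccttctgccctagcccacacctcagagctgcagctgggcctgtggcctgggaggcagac

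The Klhdc3 promoter has 25 CG dinucleotides and the Ppp2r5d entry shown 22, with 16 in the other Ppp2r5d entry. The promoter of Ubr2 has 16, that of Prph2 7 and that of Ptcra 1, against a median of 7 over all 32851 promoters of the table (quartiles 3 and 20). The Klhdc3 sequence is also the start region of Mea1 read on the opposite strand: 1 of 5 Mea1 entries shares 290 of its bases, and the genes lie head to head 206 bp apart on NCBIM37. Klc4 and Mrpl2 form another head-to-head pair, whose promoter entries share 240 bases or more. The promoter entry of Cul7 has 10, that of Gnmt 11 and that of Tbcc 22. Searched on both strands, GGGCGG occurred in at least 1 entry of 12 of the 16 genes, against 35.7% of all promoters, and was absent from Gnmt, Prph2, Ptcra and Ubr2. CCAAT occurred in 8 genes (37.4% of all promoters) and TATAAA in 2, Cnpy3 and Rrp36 (13.6% of all promoters). Genes with several entries have more chances of a match, and a match is a description only.

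Along the stretch the level rose and fell together on all 5 arrays, with a high block over the short genes, a lower and uneven middle and a further rise over Ubr2. The mean over the short-gene segment read 0.96 and 1.0 in total RNA, 1.7 and 2.69 in MEFF polyA and 2.03 in MEFB. In the Ubr2 segment it read 0.64 and 0.62 in total RNA, 0.80 and 1.37 in MEFF polyA and 1.38 in MEFB. The middle had 0.27, 0.25, 0.35, 0.75 and 0.32 in the same order. All other windows of the chromosome averaged between -0.045 and 0.038. The short-gene segment was thus the highest of the 3 on every array. Segment means take exon, intron and intergenic probes together in unlike shares, so this order does not rank the genes.

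**Figure D1:**
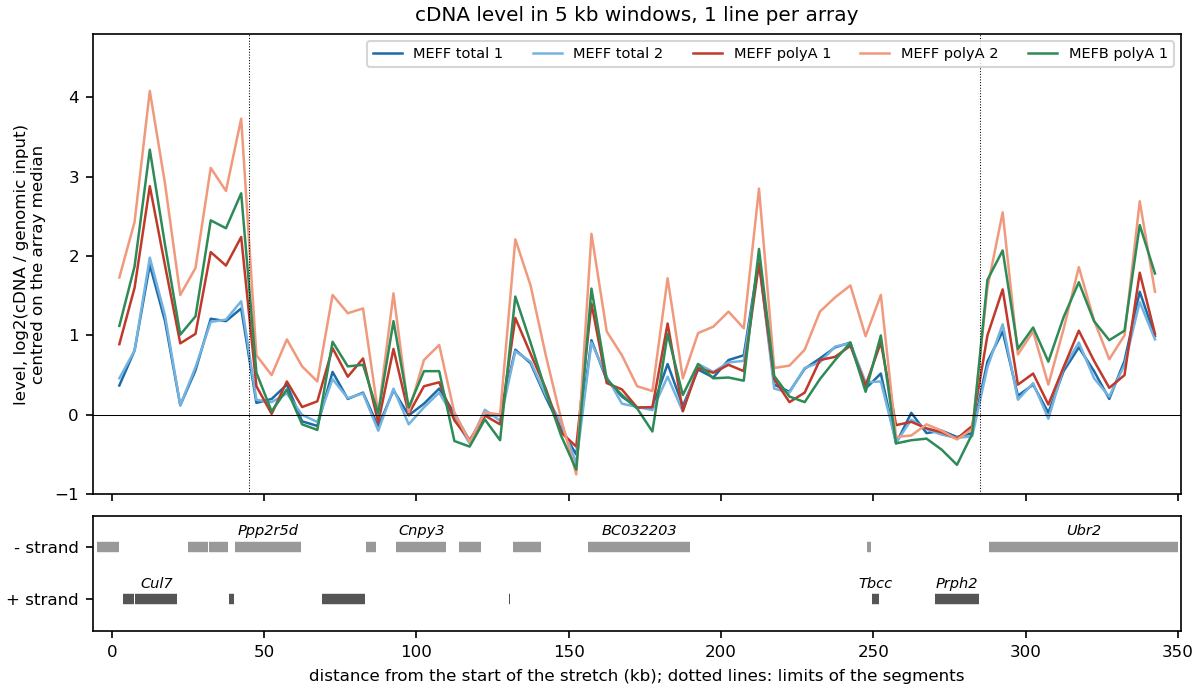
Level in each 5 kb window (vertical axis, log2 of cDNA over genomic input) against the distance from the start of the stretch in kb, 1 line per array, with gene extents by strand underneath. A peak at 10 kb, over Cul7, reads 1.89 and 1.98 in total RNA, 2.88 and 4.08 in MEFF polyA and 3.34 in MEFB, and a peak at 210 kb outside any protein-coding vM1 gene reads 1.97 and 1.93, 1.91 and 2.85, and 2.09.

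The brightest window of the short-gene segment (44810000 to 44814999) lay within Cul7, where total RNA read 1.89 and 1.98, MEFF polyA 2.88 and 4.08 and MEFB 3.34. Its dimmest (44820000 to 44824999) covered the 3′ end of Cul7 and the gap behind it, with 0.12 on both total RNA arrays, 0.90 and 1.51 on those of MEFF polyA and 1.01 in MEFB. In the Ubr2 segment the range was smaller. The brightest window (45135000 to 45139999) read 1.55, 1.42, 1.79, 2.69 and 2.39 from total RNA replicate 1 to MEFB, and the dimmest (45105000 to 45109999) 0.026, -0.049, 0.13, 0.38 and 0.67. Both limits of the stretch cut through a gene. The first window inside, over Klc4 and Mrpl2, had 0.37, 0.46, 0.89, 1.73 and 1.12 in the same order, and the last before it, over Klc4, 0.42, 0.36, 0.62, 1.28 and 1.04. At the far limit, both windows within Ubr2, the last inside had 0.99, 0.95, 1.02, 1.55 and 1.78 and the first outside 0.54, 0.52, 0.45, 0.77 and 1.08.

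At gene resolution the signal sat in exons. The 316 exon probes of the stretch averaged 1.34 and 1.36 in total RNA, 2.24 and 3.36 in MEFF polyA and 2.64 in MEFB, and its 752 intron probes 0.27 and 0.24, 0.33 and 0.76, and 0.52. Cul7 exons read 2.28 and 2.40 in total RNA, 3.62 and 5.13 in MEFF polyA and 4.02 in MEFB (49 probes). Among the 714 genes of the chromosome with at least 5 exon probes, it stood at percentiles 94.26 to 99.16 on the 5 arrays. Ubr2 read 2.26 and 2.25, 3.12 and 4.41, and 4.10 over 48 probes, at percentiles 94.68 to 96.92. Ppp2r5d read 1.90 and 1.95, 3.05 and 4.75, and 3.75 over 25 probes, at percentiles 91.46 to 97.76. Every value of these 3 genes in polyA RNA exceeded every one in total RNA. Both total RNA arrays lay below both MEFF polyA arrays for 73.9% of all genes, so this is not particular to them. The 3 genes are probed by different sequences, so their levels are not ranked against each other.

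The other genes of the short-gene segment were transcribed too. Klhdc3 had 1.85 and 1.75 in total RNA, 2.92 and 4.04 in MEFF polyA and 3.46 in MEFB (17 exon probes). Mea1, its head-to-head neighbour, had only 4 exon probes and entered no test. Its levels were 1.67 and 2.23, 3.13 and 4.65, and 4.12. Rrp36, which serves early processing of ribosomal RNA, read 1.32 and 1.37, 2.61 and 3.97, and 3.05. Mrpl2, a protein of the large mitochondrial ribosome subunit, read 0.89 and 0.88, 2.79 and 3.78, and 3.30, and so moved from percentiles 64.15 and 65.55 in total RNA to percentiles 82.91 to 88.80 in polyA RNA. Klc4, a kinesin light chain, read 0.78 and 0.72, 1.69 and 3.0, and 2.43 over 22 exon probes. Only 4 of these probes lie inside the stretch, so the exon values of Klc4 here and below come mostly from beyond its limit.

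The middle held genes of very different levels. Cnpy3, an endoplasmic reticulum chaperone of Toll-like receptors, read 1.1 and 1.15 in total RNA, 2.70 and 3.98 in MEFF polyA and 3.70 in MEFB. Rpl7l1, a relative of a ribosomal protein, read 1.59 and 1.54, 2.28 and 3.34, and 2.73. BC032203 read 1.26 and 1.22, 2.06 and 3.17, and 2.27. Pex6, an ATPase that recycles the import receptor of peroxisomes, read 0.59 and 0.66, 1.38 and 2.33, and 1.33, and Tbcc, a tubulin folding cofactor, 0.71 and 0.60, 1.24 and 2.09, and 1.48. Both lay near the middle of the chromosome's genes. A330017A19Rik reached 1.1 on MEFF polyA replicate 2 and lay between 0.15 and 0.31 on the other 4 arrays.

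Genes known as markers of other cells were near 0. Prph2, which shapes the photoreceptor outer segment, had -0.31 and -0.27 in total RNA, -0.25 and -0.19 in MEFF polyA and -0.48 in MEFB. Ptcra, the pre-T-cell receptor alpha chain, lay between -0.25 and 0.036, and Gnmt, a glycine methyltransferase abundant in liver, between -0.032 and 0.27. Thbs2, a thrombospondin of fibroblasts elsewhere on the chromosome, had exon levels of 0.49 and 0.37, 1.28 and 1.95, and 5.24, so that the MEFB array read above all 4 MEFF arrays. It was 3.62 above MEFF polyA as deposited (limma adjusted p = 0.135). Under the normexp, quantile and loess scalings described below it was 3.68, 2.85 and 2.0 above, and whether it was called depended on the scaling. Fibroblast markers on other chromosomes were not analysed here.

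**Figure D2:**
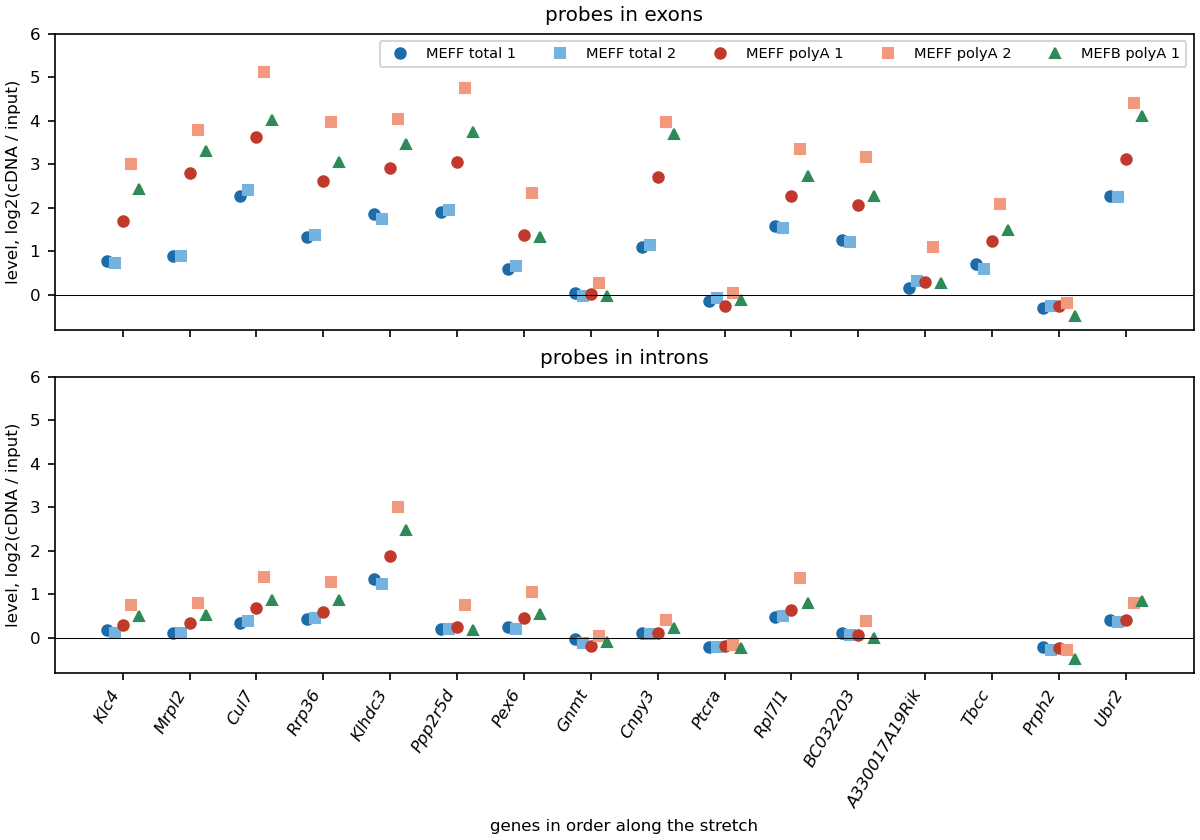
Mean level of exon probes (top) and intron probes (bottom) of each gene with at least 5 such probes, in order along the stretch, 1 symbol per array, on the same log2 scale. Exons stand above introns in the transcribed genes, Klhdc3 has the highest introns (1.24 to 3.01), and Gnmt, Ptcra and Prph2 stay near 0 in both.

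Exons exceeded introns by different amounts in total and polyA RNA. For Ubr2 the gap between exon and intron level was 1.85 and 1.88 in total RNA, 2.73 and 3.62 in MEFF polyA and 3.26 in MEFB. For Ppp2r5d it was 1.69 and 1.74, 2.81 and 3.99, and 3.55. Cnpy3 had 0.98 and 1.06, 2.58 and 3.58, and 3.47, and Mrpl2 0.77 and 0.78, 2.46 and 2.98, and 2.77. In these genes the gap was wider on each polyA array than on each total RNA array. As a difference within an array it does not depend on the centring, but it can depend on the dynamic range of the array. That range was narrowest for total RNA (5.42 and 5.33, against 9.17, 22.4 and 20.7 for polyA RNA), and its effect on the gap was not tested. Klhdc3 also had a wider gap on each polyA array, with smaller values of 0.50 and 0.51, 1.04 and 1.03, and 0.97. Its intron probes were themselves high. A run of 12 probes outside exons, reaching just past the start of Klhdc3, averaged 1.54 and 1.47, 2.13 and 3.28, and 2.72. RefSeq's Mea1 record, 4.3 kb long against 2.0 kb in vM1, overlaps Klhdc3, and the strands could not be read apart.

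Ubr2 was the longest vM1 gene of the stretch and had 28 exons with probes, 22 of them inside the stretch. Probes respond differently to the same RNA, so single exons are compared between arrays and not ranked. Exon 9 read 4.09 and 3.81 in total RNA, 4.84 and 5.86 in MEFF polyA and 5.65 in MEFB, whereas exon 22 read 0.22 and 0.35, 0.48 and 1.29, and 1.34, each from 1 probe. The last exon, with 14 probes, read 2.01 and 1.86, 2.49 and 3.92, and 3.79. Total RNA lay below both MEFF polyA arrays in 26 of the 28 exons. At the level of whole genes the same held for 73.9% of all genes of the chromosome, and the stretch was picked on this contrast, so the count is a description only. Cut into 3 equal parts, the gene had exon levels of 2.24 and 2.22, 3.13 and 4.49, and 4.24 in the 3′ part, 2.76 and 2.66, 3.47 and 4.73, and 4.30 in the middle part, and 1.33 and 1.53, 2.41 and 3.52, and 3.30 in the 5′ part (24, 16 and 8 probes). The 5′ part, with the fewest probes, was the lowest on every array, and the total minus polyA difference was -1.58, -1.39 and -1.54 from the 3′ to the 5′ part, close to each other against an SD between the polyA arrays of 0.78 to 0.96.

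**Figure D3:**
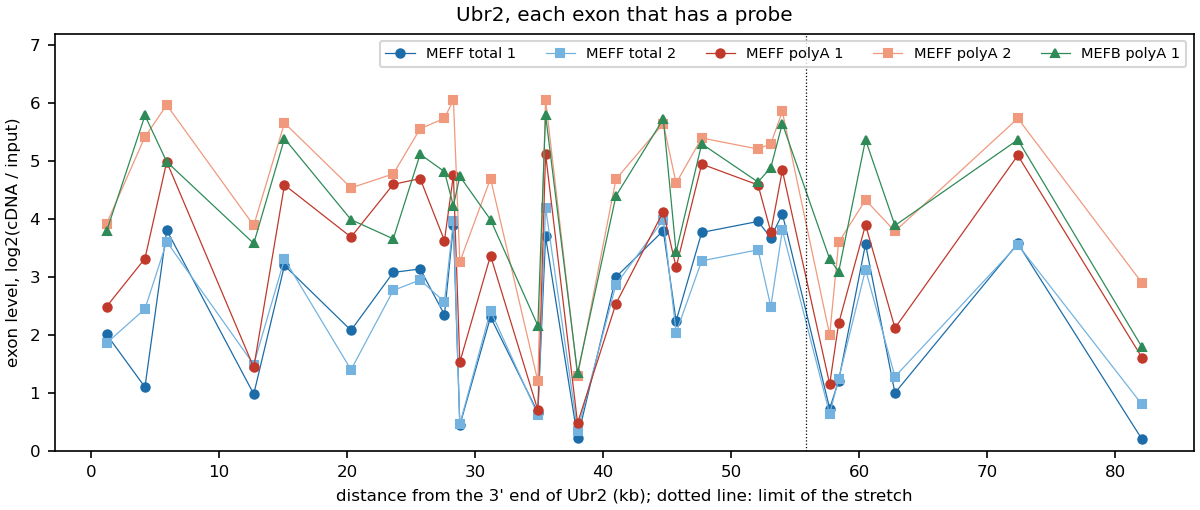
Level of each Ubr2 exon that has a probe (vertical axis, log2) against its distance from the 3′ end of the gene in kb, 1 line per array; the dotted line is the limit of the stretch. The arrays follow the same pattern from exon to exon, with total RNA lowest, and exons of 1 probe range from below 1 to above 5.

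Long runs of signal lay off the annotated exons of Ubr2 and between genes. Runs were sought after the data were seen, as at least 10 successive probes outside exons whose running mean over the 5 arrays reached 1.0, and get no test. In Ubr2, 31 intron probes over 5.7 kb (45135052 to 45140729 in the array files, NCBIM37 17:47112489 to 47118215) averaged 1.5 and 1.42 in total RNA, 1.72 and 2.62 in MEFF polyA and 2.40 in MEFB, and 19 of the 31 were at 1.0 or more on every array. The rest of the Ubr2 introns had 0.31 and 0.28, 0.28 and 0.63, and 0.70. At Klhdc3, besides the run of 12 probes given above, 11 probes over 5.0 kb (44831120 to 44836152) formed a run. They averaged 0.77 and 0.76 in total RNA, 1.24 and 2.25 in MEFF polyA and 1.45 in MEFB. The run between genes, 23 probes over 7.7 kb (45010176 to 45017873, NCBIM37 17:46988145 to 46996110), averaged 1.83 and 1.77 in total RNA, 1.78 and 2.68 in MEFF polyA and 1.94 in MEFB, with 16 of 23 probes at 1.0 or more on every array. Total RNA was thus as high as MEFF polyA replicate 1 there.

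That last run lies in the 57802 bp between BC032203 and A330017A19Rik, which vM1 leaves without a protein-coding gene. RefSeq (GRCm38.p6) lists in this order Rpl7l1, a 92.3 kb gene named Bicral, and Tbcc, so that it places 1 long gene where vM1 has BC032203 of 33.3 kb, the gap and A330017A19Rik. Bicral encodes a subunit of a SWI/SNF chromatin remodelling complex. Over the whole gap, 239 probes averaged 0.76 and 0.75 in total RNA, 0.68 and 1.29 in MEFF polyA and 0.64 in MEFB, and without the bright run 0.64 and 0.64, 0.56 and 1.15, and 0.50. The other 275 intergenic probes of the stretch lay between -0.22 and 0.0089 on the 5 arrays. The introns of BC032203 itself had 0.11 and 0.076, 0.066 and 0.38, and -0.012. Among the 11 windows wholly inside the gap, both total RNA arrays lay below both MEFF polyA arrays in 1, against 20.9% of all windows. The count is a description only.

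Comparing MEFF total RNA with MEFF polyA RNA asks how much of each gene's signal depends on selecting tailed transcripts. The stretch was picked on this contrast, so its numbers are descriptive. Both total RNA arrays lay below both polyA arrays in 9 of 9 windows of the short-gene segment, in 24 of 48 in the middle and in 11 of 12 of the Ubr2 segment, against 20.9% of all windows. For exon levels the same held for 13 of 16 genes, against 73.9% of all genes, and for intron levels for 10 of 14 genes, against 44.2%. The mean difference was -1.21 in the short-gene segment and -0.45 in the Ubr2 segment as deposited. It was -0.55 and -0.077 after quantile normalization, which gives all arrays the same distribution, and -0.53 and -0.17 after loess normalization within arrays. The short-gene segment thus had the larger difference under each of these 3 scalings, while the sizes fell by more than 1.5 times from the values as deposited. Segment means take exon and intron probes together, in unlike shares. Of the 340 probes of the Ubr2 segment, 40 lay in Ubr2 exons and 250 in its introns, whereas Cul7 had 49 and 25. As deposited, Ubr2 exons inside the stretch differed by -1.5 and its introns there by -0.29. How far these shares set the difference between the segments was not tested.

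Over exons alone and as deposited, the total minus polyA difference was -2.40 for Mrpl2, -2.04 for Cul7, -1.97 for Ppp2r5d, -1.95 for Rrp36, -1.68 for Klhdc3, -1.60 for Klc4 and -1.51 ± 0.50 (SE) for Ubr2. In the middle it was -2.22 for Cnpy3, -1.37 for BC032203, -1.24 for Rpl7l1, -1.23 for Pex6 and -1.01 for Tbcc. The median was -1.44 over the 16 genes and -0.96 over all 714. These sizes depended on the polyA array. Against replicate 1 alone (without replicate 2) the difference was -1.28 for Cul7, -1.12 for Ppp2r5d, -0.94 for Klc4 and -0.87 for Ubr2, and against replicate 2 alone -2.79, -2.82, -2.25 and -2.15. Mrpl2 ranged less, from -1.90 to -2.90. Over the whole chromosome limma called 0 of 714 genes (0%) and 0 of 15383 windows after Benjamini-Hochberg adjustment, with 303 genes (42.4%) and 1189 windows (7.73%) at an unadjusted p under 0.05.

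Scaling changed the sizes and the order of the genes. The median difference of the 16 genes and of all 714 was -1.37 and -1.05 after normexp background correction, -0.56 and -0.31 after quantile normalization and -0.55 and -0.40 after loess. Mrpl2 stood at -2.48 after normexp, at -1.51 after quantile normalization and at -0.64 after loess. Cnpy3 stood at -2.40, -1.17 and -1.26 in the same order, and Klc4 at -1.83, -0.95 and -1.64. Ppp2r5d moved from -1.95 to -0.82 and -0.45, Cul7 from -1.92 to -0.60 and -0.53, and Ubr2 from -1.34 to -0.19 and -0.36. Each of these 6 genes was lower in total RNA under all 4 scalings, but only Klc4 and Cnpy3 stayed at or below -0.95 throughout. Klc4 has most of its exon probes outside the stretch. The chance of a call was favoured by the choice of the stretch, so the window counts that follow carry no weight: quantile normalization called 17 of 69 lower in total RNA (3.51% of all windows) and 1 higher (2.53%), and normexp 14 lower (2.7%). The 1 higher window was the bright one between BC032203 and A330017A19Rik (45010000 to 45014999), at 0.86. It read -0.43 as deposited and -0.058 after normexp, so its direction depends on the scaling.

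**Figure D4:**
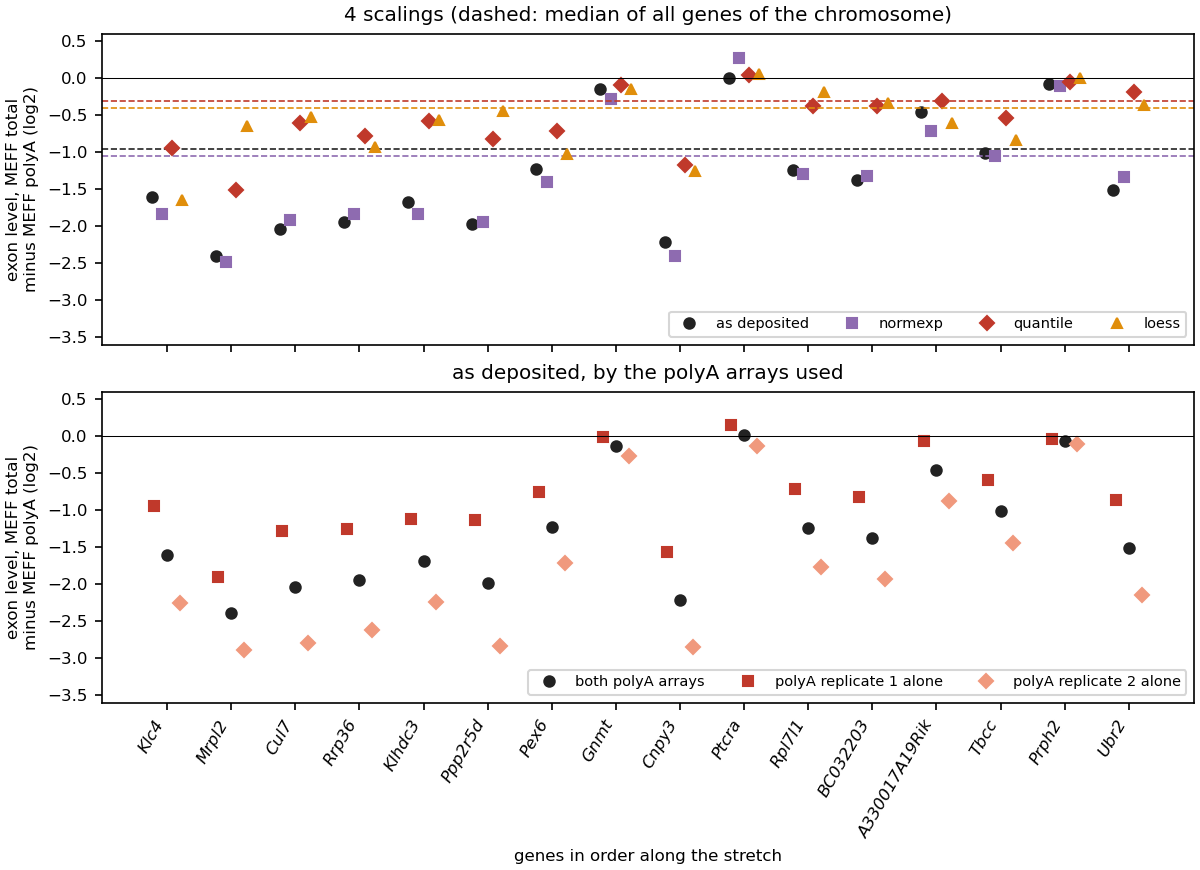
Exon-level difference between MEFF total and MEFF polyA RNA (vertical axis, log2) for each of the 16 genes in order along the stretch, under 4 scalings with the median of all 714 genes as dashed lines (top), and as deposited against both polyA arrays or 1 of them (bottom). Mrpl2 moves from -2.40 as deposited to -0.64 after loess and Ubr2 to -0.36, and Ppp2r5d lies at -1.12 or -2.82 by the polyA array used.

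The comparison of the MEFB with the MEFF line in polyA RNA rests on 1 MEFB array, which has no spread of its own and is assumed to vary like the MEFF arrays. The stretch was picked for being transcribed in every group, MEFB included, but not for a difference between the lines. As deposited, limma called 0 of the 69 windows (0.0065% of all windows, 1 of 15383), with 5 of 69 at an unadjusted p under 0.05 against 15.7% of all windows. It called 0 of 16 genes (0.14% of all genes, 1 of 714), and 0 had an unadjusted p under 0.05, against 8.4%. The difference for Ubr2 was 0.33 ± 0.62 (SE), for Ppp2r5d -0.15 ± 0.80, for Cul7 -0.36 ± 0.72, for Pex6 -0.52 ± 0.47 and for Cnpy3 0.35 ± 0.62, with adjusted p-values of 0.929 or more. These standard errors leave room for differences well beyond those measured, in either direction. The MEFB level lay between the 2 MEFF polyA arrays for most genes: it was above both for 0 of 16 (20.2% of all genes) and below both for 4, namely Pex6, Gnmt, A330017A19Rik and Prph2 (31% of all genes).

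Along the stretch the sign of the line difference was not uniform. In the Ubr2 segment MEFB was above both MEFF polyA arrays in 8 of 12 windows and below both in 0, against 34.7% and 31.3% of all windows. In the middle it was below both in 27 of 48 and above both in 2, and in the short-gene segment it lay between them in all 9. After quantile normalization MEFB was below both in 9 of 9 windows of the short-gene segment, in 39 of 48 in the middle and in 2 of 12 over Ubr2 (36.2% of all windows), and above both in 0, 1 and 8 (37.7%). The pattern over the short genes therefore depends on the scaling, whereas over Ubr2 MEFB was above both in 8 of 12 windows under each. As deposited the segment means differed by 0.30 over Ubr2, -0.23 in the middle and -0.16 over the short genes, each less than the SD between the MEFF polyA arrays of 0.40, 0.28 and 0.69. Ubr2 introns had 0.84 in MEFB against 0.40 and 0.79 in MEFF polyA RNA, and the gap next to BC032203 had 0.64 against 0.68 and 1.29. Whether Ubr2 differs from its neighbours in this respect was not tested.

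With the spread of the MEFF arrays assumed for MEFB, quantile normalization called 13 of the 69 windows, all lower in MEFB, against 3.11% of all windows called lower. Of the 13, 7 lay in the gap between BC032203 and A330017A19Rik, 2 over BC032203, 2 over Pex6 and 2 over Cul7. The largest was the window from 45030000 to 45034999, at -0.60 with an adjusted p of 0.0061. It read 0.69 and 1.30 in MEFF polyA and 0.45 in MEFB, and its difference was -0.55 as deposited. Over exons, quantile normalization called 3 of 16 genes lower, Cul7 at -0.63 (adjusted p = 0.023), Pex6 at -0.60 (0.015) and BC032203 at -0.50 (0.0264), against 11.1% of all genes called lower. As deposited, MEFB lay between the 2 MEFF polyA arrays for Cul7 and for BC032203. Ubr2 stood at -0.026 (0.916) after quantile normalization. Normexp called 0 windows and 0 genes of the stretch, with 20 windows and 3 genes at an unadjusted p under 0.05, against 12% and 17.5% of all windows and genes at that p (3.17% and 8.4% were called after adjustment). Both scalings together called 2 windows and only Pex6, at -1.0 (0.0211), against 2.49% of all windows and 7.98% of all genes called lower.

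**Figure D5:**
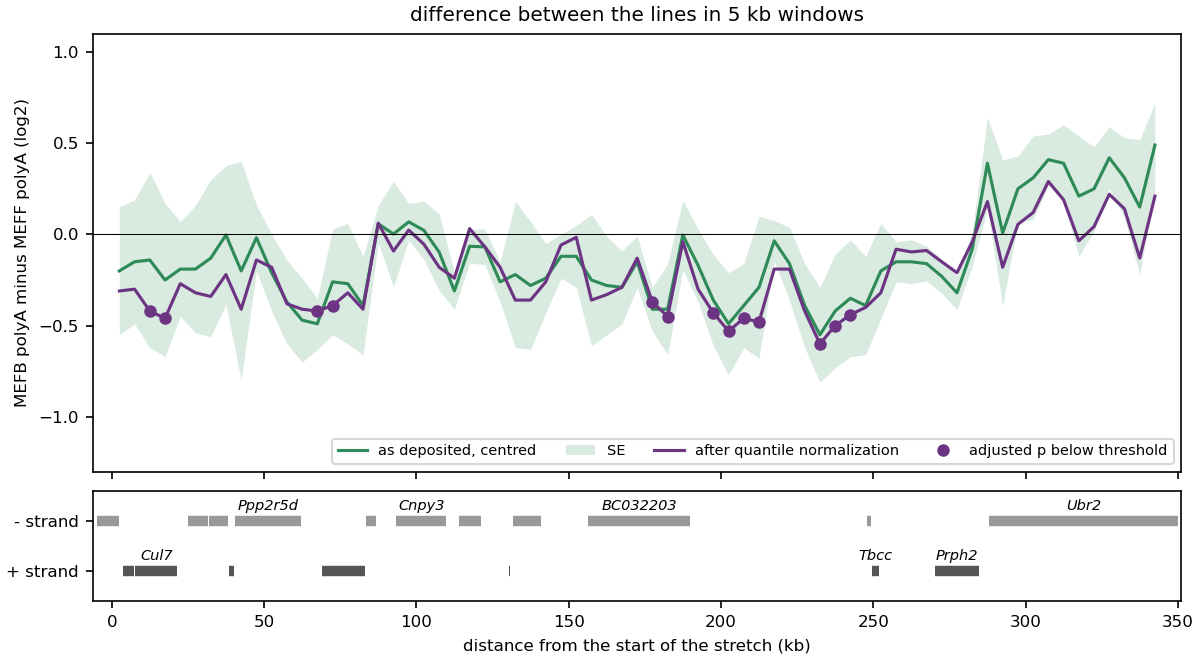
Difference between MEFB and MEFF polyA RNA (vertical axis, log2) in each 5 kb window against the distance from the start of the stretch in kb, as deposited with its SE and after quantile normalization, with the 13 windows called there marked and gene extents underneath. The curve lies mostly below 0 up to the start of Ubr2 and, as deposited, above 0 over Ubr2.

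The comparison of the lines turned on which MEFF polyA array was used. With 1 MEFF polyA array left out, 1 array stands against 1, and these values are given with no test. Ppp2r5d was 0.70 higher in MEFB without replicate 2 and 1.0 lower without replicate 1, and Cul7 was 0.40 higher and 1.11 lower. Ubr2 was 0.98 higher and 0.31 lower. No direction of the line difference is therefore given for these 3 genes. Pex6 lay below both arrays, by 0.99 against replicate 2 but by only 0.048 against replicate 1. MEFB lay below both for 31% of all genes, and no direction is given for Pex6 either. The BC032203 exon level of 2.27 in MEFB lay between 2.06 and 3.17 in MEFF polyA RNA. Its difference was -0.34 as deposited and 0.15 after loess, so it gets no direction.

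By function, the gene lists of the stretch gave no call between the lines as deposited (0.14% of all genes called). The count was 0 of 2 for protein phosphatase 2A (Ppp2r5d and Ppp2r1a), 0 of 3 for ribosomal and nucleolar genes (Rpl7l1, Rrp36 and Mrpl2), 0 of 1 for the peroxisomal Pex6 and 0 of 1 for Ubr2. Ppp2r1a, the scaffold subunit of the phosphatase, lies elsewhere on the chromosome and read 2.36 and 2.44 in total RNA, 3.8 and 4.83 in MEFF polyA and 4.69 in MEFB. Both phosphatase genes thus had every polyA value above every total RNA value. This is not particular to them: both total RNA arrays lay below both MEFF polyA arrays for 73.9% of all genes. Their total minus polyA difference was -1.92 for Ppp2r1a and -1.97 for Ppp2r5d as deposited, -0.49 and -0.82 after quantile normalization, and -0.21 and -0.45 after loess.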

How the data were processed

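The data were 5 2-colour NimbleGen tiling arrays of chromosome 17, with double-stranded cDNA in Cy3 and sonicated genomic DNA in Cy5, per the labels. The authors deposited raw intensity values per probe. Per the file headers they come from NimbleScan 2.2.34, and the values show no background subtraction or normalization. A probe build was not given in the sources used here. With no dye swap, a dye effect common to the arrays cancels only in differences between them.

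From these, log2(cDNA/input) was computed per probe, centred on the array median, and averaged over 5 kb windows with at least 8 probes or over the exon or intron probes of a gene (at least 5 for a test; probes within 50 bp of an exon are left out of introns). Probes were placed on NCBIM37 from avoidance of repeated 12-mers in blocks of 40 kb and then 2.5 kb (361114 of the probes, 93.1%), with an offset of -26 bp chosen from base composition and the input signal, and a probe length taken as 50 bases. Differences were fitted by limma 3.58.1 (R 4.3.3) across every window or gene, with all 5 arrays in the model (2 residual degrees of freedom), with Benjamini-Hochberg adjustment and a threshold of 0.05. For MEFB, with 1 array, the spread of the other groups is assumed. The fits were tested on simulated data with the same spread on every array. The arrays here differ in spread, with an SD over the short-gene segment of 0.027 for total RNA and 0.69 for MEFF polyA. That test therefore checks the fitting code only and does not show how reliable calls are in these data. Named windows are the brightest and dimmest of each segment, the largest differences and the windows at each limit; named genes are all protein-coding genes overlapping the stretch. Alternatives were normexp (offset 50), quantile, loess (span 0.3), the cDNA channel alone, probe medians, windows of 2 and 10 kb, removal of the dimmest 10% of input probes, a trended prior, only the compared groups, and each replicate left out. Chosen after seeing the data were normexp followed by quantile normalization, the placing, the gene-level tests and the bright runs. The members and gene lists were chosen with earlier results of these data known. The number of arrays limits the precision.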

Additional observations from a re-analysis of the deposited data

How the results depend on the processing

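No paired analysis was possible because the replicate numbers were given in accession order and pair no samples, and MEFB has 1 array. For total against polyA RNA, the contrast the stretch was picked on, 0 windows of the stretch were called as deposited, 14 after normexp, 18 after quantile normalization and 10 after both; leaving out 1 array each gave 0 to 57. For MEFB against MEFF, 0 were called as deposited, 13 after quantile normalization and 2 after normexp and quantile normalization; leaving out 1 array each gave 0 to 52. Without 1 MEFF polyA array, the lines are compared 1 array against 1 with a spread from the total RNA pair alone, so those calls measure no difference between lines. In both comparisons, calls without 1 MEFF polyA array rose over the whole chromosome too, not only in the stretch. Apart from the settings that left out 1 array, the other settings called 0 windows of the stretch in both. Of all windows, 3.39% were called in either direction for total against polyA RNA after normexp. Quantile normalization called 6.04% and both scalings together 3.88%. For the lines the shares were 6.81% after quantile normalization and 6.33% after both. The short-gene segment's difference between the lines was -0.16 as deposited but 0.15 in the cDNA channel alone, and ranged from -0.65 to 0.33 with 1 array left out. The other segment differences kept their sign: leaving out 1 array gave -1.7 to -0.72 and -0.73 to -0.17 for total against polyA in the short-gene and Ubr2 segments, and 0.016 to 0.59 for the lines in the Ubr2 segment.

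Single windows turned sign with a call in 6 cases. Among them was the window at 45010000 for total against polyA RNA (0.86 after quantile normalization). For the lines, with 1 array left out, the window at 44795000 ranged from -0.24 to 0.41, 44800000 from -0.62 to 0.22, 44810000 from -0.74 to 0.46, 44840000 from -0.94 to 0.55 and 45135000 from -0.30 to 0.60. Exon levels between the lines ranged likewise from -0.57 to 0.73 for Klc4, -0.49 to 0.51 for Mrpl2, -1.11 to 0.40 for Cul7, -0.92 to 0.45 for Rrp36, -0.58 to 0.54 for Klhdc3, -1.0 to 0.70 for Ppp2r5d, -0.29 to 0.99 for Cnpy3, -0.62 to 0.44 for Rpl7l1, -0.61 to 0.24 for Tbcc and -0.31 to 0.98 for Ubr2. The negative ends came without MEFF polyA replicate 1 and the positive ends without replicate 2. The cause was not tested. With 2 arrays a group, 2 of them far apart in dynamic range, differences of a doubling can be missed.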
